A study of Homo sapiens with 4 samples.

Results

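The Hedgehog pathway genes followed here were the ligands SHH and IHH, the receptor PTCH1, the ligand-binding inhibitor HHIP, the signal transducer SMO, the inhibitor SUFU and the transcription factors GLI1, GLI2 and GLI3. They were matched by symbol, as a set chosen with earlier results of these data known, and all 9 were found among the 36359 genes of the count table. The RNA came from ACHN cells, an established line grown from a human renal cell carcinoma, transfected with a control siRNA (siNC, n = 2 libraries) or with siRNA against PRR11 (siPRR11, n = 2 libraries). No other treatment or genotype was given for either group, and both received the same transfection reagent. The time between transfection and harvest and the duplex used in each library are not given in the sources used here. Because the data come from 1 line and nothing in the labels says that the libraries were separate cultures, p-values measure the spread between these libraries, which may be technical.

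In this pathway a secreted ligand binds PTCH1, which in the absence of ligand holds SMO inactive. Active SMO gathers in the primary cilium, and GLI2 and GLI3 are then released from SUFU and from processing into repressors, so that they can activate transcription. GLI1, PTCH1 and HHIP are themselves targets of the GLI factors in many tissues, and their levels are commonly read as an output of the pathway. In the developing kidney, ligand made by the epithelium acts mainly on the surrounding stroma.

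The libraries held between 59003839 and 92612749 counted reads, and 21630 genes had enough counts to be tested. PRR11, the targeted gene, was lower in both siPRR11 libraries, at 35.9% of the control mean, with a log2 fold change of -1.48 (SE, standard error, 0.0909, edgeR adjusted p = 3.35e-06 by its quasi-likelihood test, as for all adjusted p-values that follow unless another tool is named). Libraries of a group differed by more than sampling noise. Of the 10 markers of renal epithelium, all had counts in every library, although CDH6 stayed at or below 0.0637 CPM (counts scaled to library size, with TMM normalization). Their summed level was 3228 and 2835 CPM in siNC and 3089 and 2960.0 CPM in siPRR11. Of the 9 that could be tested, 1 was called higher and 3 were called lower, where 16.7% of all genes tested were called. EPCAM was among those called lower, with a log2 fold change of -0.65 (edgeR adjusted p = 0.000257). The 9 markers of immune, endothelial and fibroblast-like cells summed to 68.8 and 63.6 CPM in siNC and to 119 and 95.3 CPM in siPRR11. COL1A1, a fibrillar collagen chain that carcinoma lines can also express, made up most of that sum. Only 5 of the 9 had enough counts to be tested. Of these, COL1A1 alone was called, with a log2 fold change of 0.90 (edgeR adjusted p = 0.000329). CD3E had no counts in 3 of the 4 libraries, CDH5 had none in siNC, and PTPRC did not exceed 0.069 CPM. The part of COL1A1 or of the renal markers in the results below was not tested. In bulk RNA, fewer cells expressing a gene and less RNA of it per cell cannot be told apart.

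Of the 7 members that could be tested, SMO, GLI1, GLI2 and GLI3 were called lower in siPRR11 cells (adjusted p under 0.05, called in what follows) and none was called higher. SUFU, PTCH1 and SHH were not called, and IHH and HHIP had too few reads to be tested. Over all genes tested 16.7% were called, with 9.14% called lower and 7.61% called higher. The groups did not overlap, with siPRR11 lower, for 5 of the 7 tested members, against 29.3% of all genes tested, while 29.1% of all genes were higher without overlap. The median log2 fold change was -0.45 over the 7 tested members and 0.0022 over all genes tested. The calls of the members did not hold with limma on the log2 of the deposited RPKM, where none of the 4 passed (adjusted p from 0.0521 to 0.211 on the log2(RPKM + 1) scale) and 3 members had an unadjusted p under 0.05. That test also had the opposite balance over all genes, with 684 called lower and 1091 higher, in place of 1977 lower and 1645 higher in the test on counts. Without siPRR11 replicate 2, the test on counts called 2 members.

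**Figure D1:**
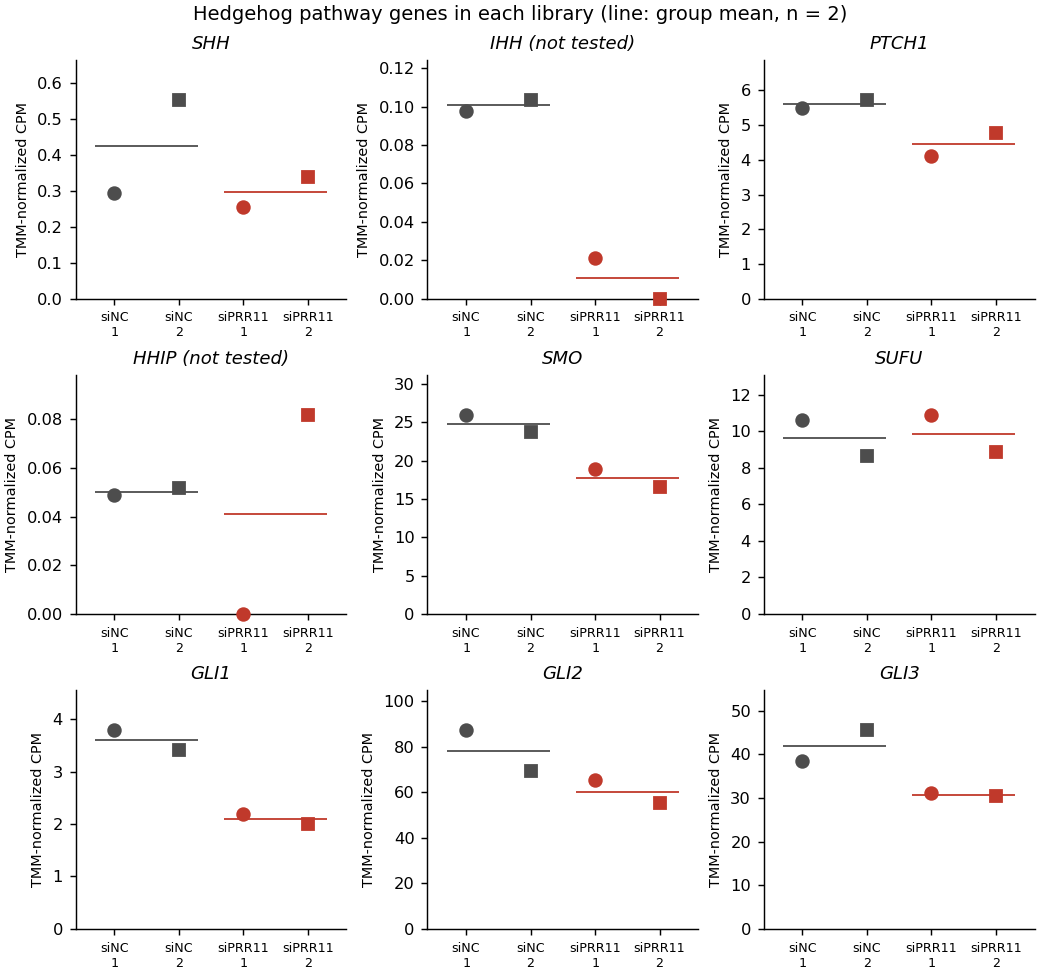
Each panel plots the TMM-normalized CPM of 1 gene (vertical axis, from 0) in the 2 siNC libraries (grey) and the 2 siPRR11 libraries (red), with circles for replicate 1, squares for replicate 2 and lines for group means. Both siPRR11 libraries lie below both siNC libraries for PTCH1, SMO, GLI1, GLI2 and GLI3, and for the few reads of IHH. The groups overlap for SUFU, SHH and HHIP.

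The per-length level, in RPKM (reads scaled to exonic length and library size, TMM-normalized), put the members in a wide order. GLI2 was highest, at 9.44 ± 1.83 RPKM over the 4 libraries (SD, n = 4), above 78.6% of the genes tested. SMO followed at 4.94 ± 0.998 RPKM and GLI3 at 3.94 ± 0.77 RPKM (SD, n = 4 each), and the ranges of these neighbours overlapped. SUFU was at 1.42 ± 0.169 RPKM, GLI1 at 0.678 ± 0.211 RPKM and PTCH1 at 0.303 ± 0.0441 RPKM (SD, n = 4 each), each with a range clear of its neighbours. SHH was at 0.0714 ± 0.0263 RPKM, above only 4.98% of the genes tested. The ranges of SHH and IHH overlapped, and so did those of IHH and HHIP, which were near the limit of detection. SMO, GLI2 and GLI3 were thus well expressed in these cells, while reads of the ligands and of HHIP were rare.

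**Figure D2:**
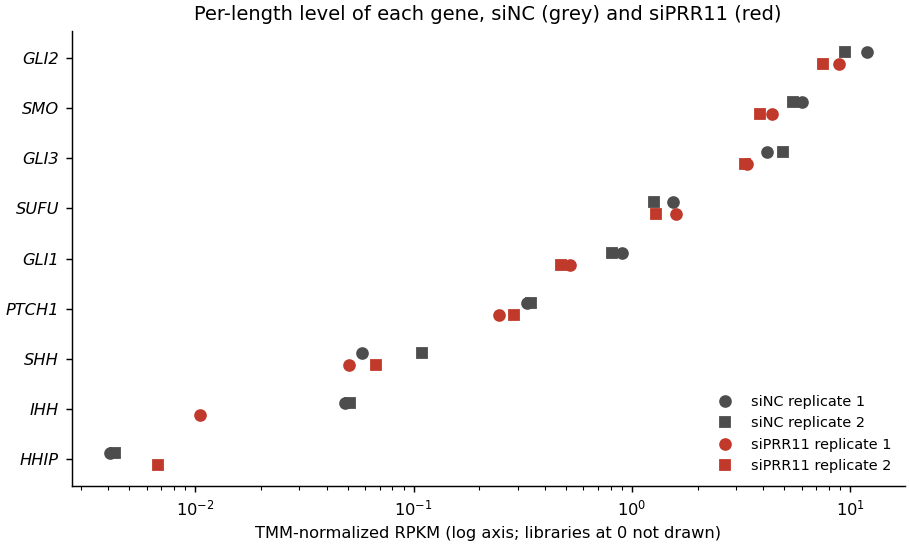
The horizontal axis, which is logarithmic, gives the TMM-normalized RPKM of each gene in each library (grey siNC, red siPRR11, circles replicate 1, squares replicate 2), with genes ordered by their mean over the 4 libraries. GLI2, SMO and GLI3 lie above 3.3 RPKM in every library, and SHH, IHH and HHIP below 0.11 RPKM.

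SHH lies at chromosome 7, 155799986 to 155812273, minus strand (GRCh38, as for all positions), and encodes the Sonic hedgehog ligand. It had 24 and 32 reads in siNC and 24 and 29 reads in siPRR11, or 0.294 and 0.552 CPM against 0.255 and 0.339 CPM. The groups overlapped, since siNC replicate 1 lay between the siPRR11 libraries. The log2 fold change was -0.48 with a 95% interval from -1.46 to 0.50 (edgeR adjusted p = 0.519), and it became 0.0071 without siNC replicate 2. A change of SHH was not detectable at this depth.

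IHH, on chromosome 2 from 219054420 to 219060467 on the minus strand, encodes the Indian hedgehog ligand. It had 8 and 6 reads in siNC, and 2 and 0 reads in siPRR11. These few reads were lower in both siPRR11 libraries, and the library at 0 allows up to 0.0351 CPM (3 counts). The ratio of siPRR11 to siNC over the summed reads was 0.111, with an exact 95% interval from 0.0122 to 0.483 that covers counting error only. Without a filter on low counts IHH had an adjusted p of 0.25 in edgeR's test and was not called. DHH, the remaining ligand of the family, was not analysed here.

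PTCH1, on chromosome 9 from 95442980 to 95517057 on the minus strand, encodes the receptor that binds the ligands and restrains SMO. Its level was 5.48 and 5.73 CPM in siNC and 4.11 and 4.78 CPM in siPRR11. Both siPRR11 libraries were lower, at 79.3% of the control mean. The log2 fold change of -0.33 (SE 0.139, 95% interval from -0.64 to -0.03) did not pass after adjustment (edgeR adjusted p = 0.128). Exons of an antisense gene overlap 4.29% of its exonic bases.

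PTCH1 is a well-known direct target of the GLI factors, so the promoters of the members were searched for the consensus of the GLI zinc fingers, GACCACCCA, which reads TGGGTGGTC on the other strand. RefSeq windows of 300 bases, from 250 before to 50 after a gene's start in GRCh38.p14, were given for 7 of the 9 members, in 12 windows. An exact match was found in 1 window, a start of PTCH1, against 83 of 35116 windows of all genes (0.236%). The match lies at chr9:95509430-95509438, beginning 172 bases before that start. The window is shown because it is the only one among the members with the letters through which GLI factors are known to bind, which are in capitals, written along the minus strand from 5′ to 3′.

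PTCH1 promoter window at chr9:95509217-95509516: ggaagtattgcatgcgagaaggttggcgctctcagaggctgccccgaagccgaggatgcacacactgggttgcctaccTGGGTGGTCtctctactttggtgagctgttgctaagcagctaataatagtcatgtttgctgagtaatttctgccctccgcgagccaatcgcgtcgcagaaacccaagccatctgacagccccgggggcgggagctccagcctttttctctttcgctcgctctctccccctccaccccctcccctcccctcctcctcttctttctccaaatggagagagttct

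With 1 mismatch allowed, a site reading gagcaccca was found in a pair of overlapping windows of other PTCH1 starts and in no window of SHH, IHH, SMO, GLI2, HHIP or SUFU, while 6.74% of all windows held a match. These are matches of letters in short windows, and binding was not measured. The windows of GLI1 and GLI3 were not analysed here.

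HHIP, on chromosome 4 from 144646021 to 144745271, encodes a membrane protein that captures Hedgehog ligands. It had 4 and 3 reads in siNC, and 0 and 7 reads in siPRR11. The groups overlapped, and the ratio of siPRR11 to siNC was 0.777 with an exact 95% interval from 0.233 to 2.60 for counting error. No difference was detectable at this depth.

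SMO, on chromosome 7 from 129188872 to 129213545, encodes the seven-pass membrane protein that carries the signal into the cell. It was at 26.0 and 23.7 CPM in siNC and at 18.9 and 16.6 CPM in siPRR11. The groups were clearly apart, with siPRR11 at 71.5% of the control mean. This is a log2 fold change of -0.48 (SE 0.101, 95% interval from -0.71 to -0.26, edgeR adjusted p = 0.00713). Without siPRR11 replicate 2 it was -0.39 and no longer called (edgeR adjusted p = 0.0771). An antisense gene overlaps 2.99% of the exonic bases.

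SUFU, on chromosome 10 from 102503987 to 102633535, encodes the cytoplasmic protein that binds and restrains the GLI factors. It was at 10.6 and 8.68 CPM in siNC and at 10.9 and 8.86 CPM in siPRR11. The groups overlapped almost completely, and the libraries of a group differed more from each other than the group means did. The difference was 0.03 on the log2 scale (SE 0.137, edgeR adjusted p = 0.912), and its 95% interval from -0.27 to 0.33 leaves room for a modest change either way. Its sign turned without siNC replicate 2 (-0.11) and without siPRR11 replicate 1 (-0.12).

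GLI1, on chromosome 12 from 57460135 to 57472262, encodes the factor that acts as an activator and is itself induced by the pathway. It was at 3.79 and 3.41 CPM in siNC and at 2.20 and 2.00 CPM in siPRR11. Each siPRR11 library was well below each siNC library, and the distance between the groups exceeded the spread within them. GLI1 fell to 58.2% of the control mean, the lowest remaining share of any tested member, which is -0.78 on the log2 scale (SE 0.166, 95% interval from -1.15 to -0.42, edgeR adjusted p = 0.00765). It stayed between -0.86 and -0.70 and remained called without any single library.

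GLI2, on chromosome 2 from 120735623 to 120992653, encodes the main activator of the pathway in many tissues. It was at 87.4 and 69.3 CPM in siNC and at 65.4 and 55.2 CPM in siPRR11. The groups did not overlap, but the lower siNC library and the higher siPRR11 library lay close together. The mean difference was -0.38 on the log2 scale (SE 0.113, 95% interval from -0.63 to -0.13, edgeR adjusted p = 0.0393). This call rested on single libraries. Without siNC replicate 1 the value was -0.20 (edgeR adjusted p = 0.127), and without siPRR11 replicate 2 it was -0.26 (edgeR adjusted p = 0.214).

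GLI3, on chromosome 7 from 41960950 to 42237870 on the minus strand, encodes the factor that serves mainly as a repressor once it has been processed. It was at 38.4 and 45.6 CPM in siNC and at 31.1 and 30.5 CPM in siPRR11. The siPRR11 libraries lay close to each other and below both siNC libraries. GLI3 fell to 73.3% of the control mean, or -0.45 on the log2 scale (SE 0.0959, 95% interval from -0.66 to -0.24, edgeR adjusted p = 0.00817). Its values without single libraries ran from -0.57 to -0.32, and each was called.

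**Figure D3:**
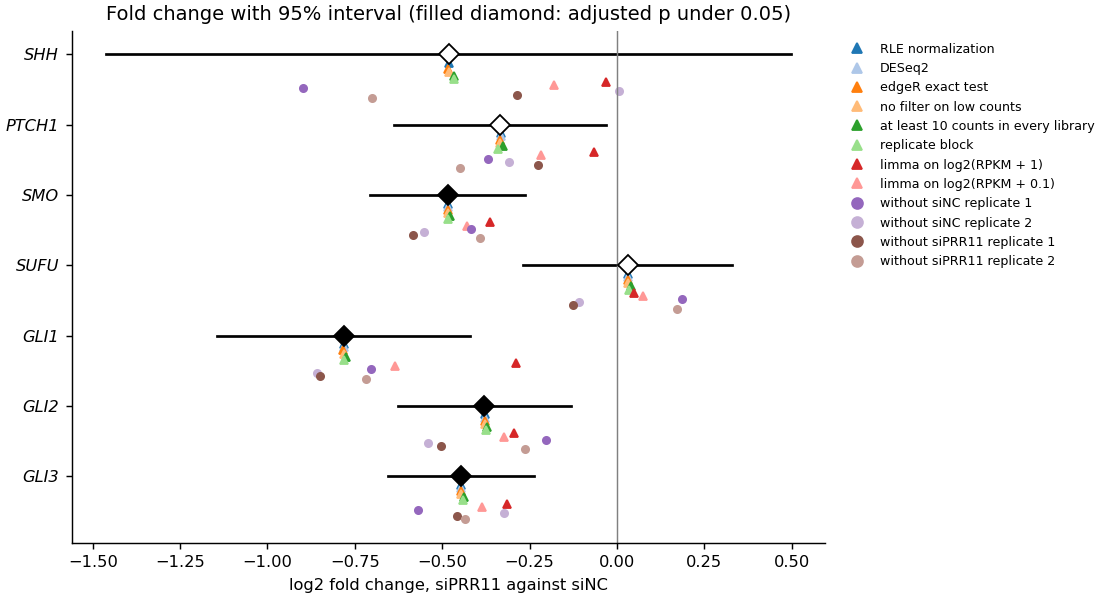
Diamonds with bars give the log2 fold change of siPRR11 against siNC and its 95% interval for the 7 tested members (filled where the adjusted p was under 0.05). Small symbols give the value under other settings, with circles where 1 library was left out. The limma values are differences of log2(RPKM + 1) or log2(RPKM + 0.1), and their sizes cannot be compared with the others. GLI1, GLI2, GLI3, SMO and PTCH1 stay below 0 under every setting drawn, while SUFU lies on both sides of 0.

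The GLI factors were then summed per length in each library. The sum was 17.0 and 15.2 RPKM in siNC and 12.8 and 11.3 RPKM in siPRR11, so both siPRR11 libraries were lower. The means were 16.1 ± 1.26 and 12.05 ± 1.06 RPKM (SD, n = 2 each). An exact two-sided permutation test gave p = 0.333, the smallest that 2 against 2 libraries allow. GLI2 made up between 62.1% and 70.2% of the sum and GLI3 between 24.5% and 32.5%, with overlapping ranges of the groups. GLI1 was 5.32% and 5.35% of the sum in siNC, and 4.08% and 4.21% in siPRR11. The share of GLI1 was thus lower in both siPRR11 libraries, which was not tested further.

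**Figure D4:**
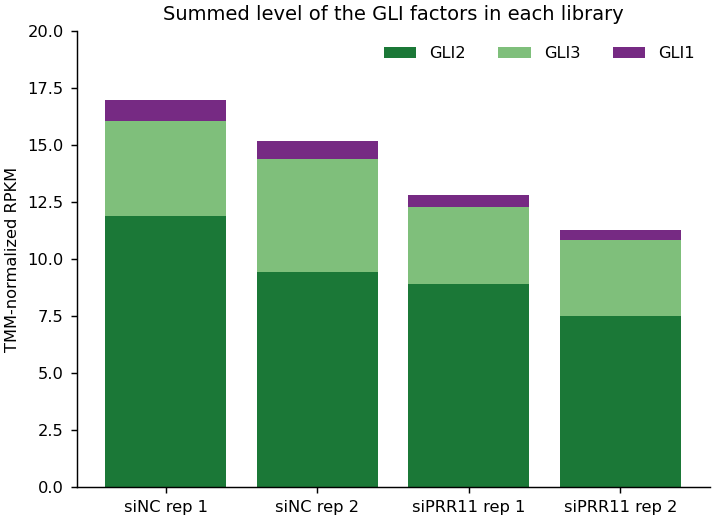
Stacked bars give the TMM-normalized RPKM of GLI2, GLI3 and GLI1 in each library, from 0 upwards. The siNC bars reach 17.0 and 15.2 RPKM, and the siPRR11 bars 12.8 and 11.3 RPKM.

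Ratios between members within a library do not depend on how libraries are scaled. The log2 ratio of SUFU to the summed GLI factors was -3.45 and -3.59 in siNC and -3.01 and -3.13 in siPRR11. This ratio was higher in both siPRR11 libraries, by 0.45 (exact permutation p = 0.333, the smallest possible). The log2 ratio of PTCH1 to SMO was -4.19 and -3.99 in siNC, and -4.15 and -3.74 in siPRR11, and the groups overlapped. The log2 ratio of GLI2 to GLI3 was 1.52 and 0.93 in siNC, and 1.40 and 1.19 in siPRR11, so that the siPRR11 libraries lay between the siNC libraries.

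Other genes of the pathway were followed as 6 lists by role, with 96 genes found in the table and 88 tested. Among proteins that finish, release or carry ligand, 1 of 7 tested genes was called, or 14.3% against 16.7% of all genes. This was ADAM17, a membrane protease that sheds many surface proteins, which was at 217 ± 6.27 CPM in siNC and at 152 ± 1.29 CPM in siPRR11 (SD, n = 2 each) and fell by 0.51 on the log2 scale (edgeR adjusted p = 0.000669). IAH1, a gene on the other strand, covers 24.1% of its exonic bases, so its value is uncertain. None of 6 tested receptors and co-receptors was called, where 16.7% of all genes were. CDON, a co-receptor that helps PTCH1 bind ligand, had 6.22 ± 0.251 CPM in siNC and 6.83 ± 0.278 CPM in siPRR11 (SD, n = 2 each). The co-receptors GAS1 and LRP2 had too few reads to be tested.

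Between SMO and the GLI factors, 4 of 16 tested genes were called lower and none was called higher. That is 25% of the list against 16.7% of all genes. The log2 fold change was negative for 8 genes of the list and positive for 8, with a median of 0.02. GPR161, a ciliary receptor that keeps the pathway off by raising cAMP, was at 31.8 and 26.2 CPM in siNC and at 16.1 and 13.6 CPM in siPRR11. Both siPRR11 values were lower, and GPR161 fell by 0.97 on the log2 scale (SE 0.118, edgeR adjusted p = 0.000292). EVC and IQCE, which work with active SMO at the base of the cilium, fell by 0.68 and 0.49 on the log2 scale. ARRB2, a beta-arrestin, fell by 0.55 on that scale. With limma on log2(RPKM + 1), EVC and IQCE were not called (adjusted p = 0.0556 and 0.0505). The genes called lower thus include both an inhibitor and positive regulators of the pathway. KIF7, the ciliary kinesin that regulates the GLI factors, had overlapping groups, at 21.0 ± 1.65 CPM in siNC and 19.2 ± 1.47 CPM in siPRR11 (SD, n = 2 each), with 11.8% of its exonic bases shared with a gene of the other strand.

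Of 17 tested kinases and ubiquitin ligase subunits that act on GLI proteins, 1 was called, below the 16.7% of all genes. It was SPOP, the adaptor through which CUL3 marks GLI2 and GLI3 for degradation. SPOP was at 50.3 ± 0.993 CPM in siNC and at 35.9 ± 1.22 CPM in siPRR11 (SD, n = 2 each), and fell by 0.49 on the log2 scale (edgeR adjusted p = 0.00189). The other 16 genes had no call, among them the casein kinase gene CSNK1A1 and BTRC, the adaptor for partial processing of GLI3. CSNK1A1 was at 70.2 ± 0.22 and 76.7 ± 1.41 CPM, and BTRC at 33.6 ± 2.59 and 30.3 ± 1.11 CPM (SD, n = 2 each). CSNK1A1 shares 37.7% of its exonic bases with a neighbour read in the same direction, which makes its value uncertain.

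Of 28 tested genes of the primary cilium and its transport system, 5 were called lower and 2 higher. That is 25% of the list against 16.7% of all genes. KIF3B, a motor subunit of the kinesin that carries cargo to the tip of the cilium, had the largest change among them and was at 92.3 and 114 CPM in siNC and at 46.8 and 48.0 CPM in siPRR11. Its groups lay far apart, and the difference was -1.12 on the log2 scale (SE 0.0988, edgeR adjusted p = 3.32e-05). Its partner KIF3A fell by 0.54 and the transport protein IFT57 by 0.60 on the log2 scale. IFT27, a small GTPase of the transport train, rose by 0.58 (edgeR adjusted p = 0.00637), and TMEM107, a protein of the zone at the base of the cilium, rose by 0.52. IFT27 was not called by limma on either log2 RPKM scale (adjusted p = 0.0646 and 0.0699). The call of TMEM107 did not hold with DESeq2 (adjusted p = 0.0544). It was also lost without siNC replicate 2 and without either siPRR11 replicate, with adjusted p-values of 0.0839, 0.11 and 0.0981 from edgeR's test.

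Among genes described as GLI targets in one tissue or another, 5 of 14 tested genes were called lower and 2 higher. That is 50% of the list against 16.7% of all genes. The targets were listed with earlier results of these data known, and the difference from all genes was not tested. CCND2, a G1 cyclin, was at 3.35 and 3.86 CPM in siNC and at 1.46 and 1.82 CPM in siPRR11, and fell by 1.13 on the log2 scale (edgeR adjusted p = 0.00175). CCND1, another G1 cyclin, was at 143 and 237 CPM in siNC and at 90.9 and 138 CPM in siPRR11. With this wide spread within groups, CCND1 fell by 0.73 on the log2 scale (edgeR adjusted p = 0.0326), a call that DESeq2 did not make (adjusted p = 0.298). Without siNC replicate 2 the value was -0.32 (edgeR adjusted p = 0.0546). NKX6-1, a homeobox gene of the neural tube and pancreas, fell by 0.72 on the log2 scale, and its call was lost without siPRR11 replicate 1 (edgeR adjusted p = 0.118) and with limma (adjusted p = 0.0599 and 0.0781). Rises were found for FOXM1, a transcription factor of mitotic genes, from 77.3 ± 2.85 to 122 ± 3.49 CPM, and for the growth factor gene IGF2, from 10.8 ± 0.264 to 17.3 ± 0.0152 CPM (SD, n = 2 each). Their log2 fold changes were 0.66 and 0.68 (edgeR adjusted p = 0.000185 and 0.000839). Antisense genes overlap 15.9% of the exonic bases of FOXM1 and 10.3% of those of CCND1, and genes of the same strand overlap 21.9% of those of IGF2, so these values are uncertain. The genes of this list thus moved in both directions, while the called members all moved down.

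The profile of the members over the 4 libraries was compared with those of 86 other genes of the pathway, by the root mean square difference of their log2 levels from each gene's mean. GLI1 was closest to GPR161 (0.111), NKX6-1 (0.127) and KIF3A (0.141). GLI2 was closest to SMO (0.0924), EFCAB7 (0.0936) and IFT140 (0.107). GLI3 was closest to IFT88 (0.0537), BCL2 (0.075) and ADAM17 (0.076), and PTCH1 to BCL2 (0.0707), GPC6 (0.0866) and SPOP (0.0915). These are the 3 smallest of 86 values for each gene, over 4 libraries that hold 1 difference of condition, and they are a description without a test.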

How the data were processed

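RNA-seq was analysed for 4 libraries of ACHN cells, 2 siNC and 2 siPRR11, grouped by the labels. Per the methods of the study, stranded libraries were sequenced on a DNBSEQ-T7, aligned to GRCh38 with STAR and counted with featureCounts. The submitters' processing notes name Trimmomatic 0.36 and Subread 1.5.1. The authors deposited raw read counts per gene, without normalization, with the exonic length of each gene. The authors also deposited RPKM values, which could be recomputed from the counts, the exonic lengths and the column totals (largest difference 3.08e-06% among 15916 genes above 50 counts in all libraries). The annotation release and whether counting was strand-specific are not given in the sources used here, so reads in bases shared with another gene are uncertain. The authors' p-values or fold changes were not used.

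Counts were TMM-normalized and tested with edgeR 4.0.16 in R 4.3.3 (quasi-likelihood test, filterByExpr with a minimum count of 10, condition as the only term). Benjamini-Hochberg adjustment ran over all 21630 genes tested, with a threshold of 0.05, and 14729 genes were left out by the filter. Standard errors were derived from the F statistic (absolute log2 fold change over root F). TMM-normalized RPKM served for levels between genes, while the limma tests used the deposited RPKM, without TMM normalization. Sums and ratios were compared by exact two-sided permutation tests. Results were recomputed with RLE normalization, with DESeq2 1.42.0, by the exact test of edgeR, without a filter, with at least 10 counts required in all libraries, with replicate number as a model term, with limma 3.58.1 with a variance trend on log2(RPKM + 1) or log2(RPKM + 0.1), and without each library in turn. With 1 library left in a group, that library is assumed to vary like the other group. Depth, from 59003839 to 92612749 counts, makes counting error small for SMO, SUFU, GLI2 and GLI3, but not for SHH, IHH and HHIP. GLI1, with 171 to 310 reads a library, and PTCH1, with 332 to 448, lie between. A level of 3 counts corresponds to between 0.0318 and 0.0517 CPM.

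The members and lists were chosen with earlier results of these data known. All members and, per list, up to 5 called genes of largest change whose average log2 CPM reached 0 are named with their values, and 1 further gene of the naming rule is not reported here. For PTCH1 and the GLI factors, the 3 genes of most similar profile are named too. Marker genes, uncalled genes of the lists given as examples (CDON, GAS1, LRP2, KIF7, CSNK1A1, BTRC) and genes that overlap a named one were chosen after their values were seen. CPLANE1 was matched through an older symbol, and DHH and OLIG2 were not analysed here. Promoter windows came from RefSeq (GRCh38.p14). Protein identities were not computed.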

Additional observations from a re-analysis of the deposited data

How the results depend on the processing

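The fall of PRR11 and the signs of the log2 fold changes of PTCH1, SMO, GLI1, GLI2 and GLI3 were the same under all 12 alternatives. SMO, GLI1, GLI2 and GLI3 were also each called under RLE normalization, DESeq2, edgeR's exact test, both other filters on low counts and the replicate block. With limma on log2(RPKM + 1) and log2(RPKM + 0.1), none of the members was called (0 and 0, with 3 unadjusted p-values under 0.05 each), with adjusted p-values from 0.0521 for GLI1 to 0.211 for GLI2 on the first scale. Over all genes limma called 1775 and 1878 (8.21% and 8.68% of those tested), against 16.7% in the main test. It called 2 SMO regulators on the first scale, and 3 cilium genes and 3 GLI targets on each scale. The cause was not tested. Leaving out single libraries gave between 2 and 4 called members, between 2172 and 4590 called genes, and 0 to 1 called receptors and co-receptors. Without single libraries the log2 fold change of SHH ran from -0.90 to 0.0071 (positive without siNC replicate 2) and that of SUFU from -0.12 to 0.19 (negative without siNC replicate 2, at -0.11, or siPRR11 replicate 1). The difference in summed GLI level ran from -4.92 to -3.14 RPKM. Without a filter, 1 receptor or co-receptor was called. Allowing 1 mismatch raised the member windows with a match from 1 to 3.

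The libraries of the groups share replicate numbers, which the labels do not tie to a culture or day. Deviations of replicate 1 from the group means correlated between the groups (r = 0.48 over 14193 genes, with 2 pairs). With the replicate block 6988 genes were called (32.3% of those tested). PTCH1 was then called (-0.34, adjusted p = 0.0184), which makes 5 members. Calls numbered 3 for ligand release (1 higher), 2 for receptors (both lower) and 7 for SMO regulators (2 higher). They numbered 2 for kinases and ligases (1 higher), 13 for the cilium (4 higher) and 9 for GLI targets (4 higher, 5 lower). With so few libraries a small change can go unseen, and depth limits what can be said of SHH, IHH and HHIP.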
